A study of Mus musculus with 6 samples.

Results

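Type I interferon antiviral effectors are genes that cells switch on when interferon-alpha or interferon-beta is sensed, and 10 of them were followed in splenic CD8+ T cells: Ifit1, Ifit3, Isg15, Usp18, Oas2, Oasl1, Oasl2, Mx1, Rsad2 and Rtp4. They were chosen by name, and all 10 were found among the 28773 gene IDs of each sample by matching the IDs to symbols. Spleens were taken from mice on day 35 after tumor inoculation, CD8+ T cells were separated with a magnetic isolation kit, and their RNA was sequenced in 3 samples of the MWA+PBS group and 3 of the MWA+2DG group. Mice of both groups carried a tumor and had it treated by microwave ablation (MWA) on day 10. MWA+PBS mice were injected with the PBS vehicle and MWA+2DG mice with 2-deoxy-D-glucose (2DG), a glucose analogue that blocks glycolysis, starting on day 10, ending on day 30 and with 2 days between injections. The mice were females of 6 weeks. The study implanted 4T1 tumor cells in BALB/c mice and Py8119, MC38 or B16F10 cells in C57BL/6 mice, and which of these were sequenced was not stated in the sources used, nor whether a sample was 1 mouse or a pool. There was no group without ablation and no group with 2DG alone in these data.

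Interferon-alpha and interferon-beta bind a receptor made of IFNAR1 and IFNAR2. The kinases JAK1 and TYK2 then activate transcription factors that join IRF9 and bind a DNA element, the interferon-stimulated response element (ISRE), in front of the responding genes. The products act on viral RNA, on translation or on the interferon signal itself, and T cells carry the receptor and respond as other cells do. Many of the same genes also respond to interferon-gamma or directly to interferon regulatory factors, so their RNA does not name the interferon.

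Promoter sequence was available for 6 of the 10 genes, from RefSeq on build GRCm38.p6. It is shown because the ISRE is the element through which the group is known to be switched on. The core of that element was searched as GAAA, any 2 bases and GAAA again on both strands (TTTC, any 2 bases and TTTC on the other), in a window of 250 bases before and 50 bases after the gene start. Of the 6 genes, 4 held it, against 3.44% of the 32851 promoters in the table. For the 4 genes with a match and for Oasl1, 120 bases of the window are given 5′ to 3′ on the strand of the gene, with every match in capitals (overlapping matches run together).
Ifit1, chr19:34640719-34640838, + strand: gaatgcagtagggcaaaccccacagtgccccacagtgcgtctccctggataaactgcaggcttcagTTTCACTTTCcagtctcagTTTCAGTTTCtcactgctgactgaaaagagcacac
Ifit3, chr19:34583359-34583478, + strand: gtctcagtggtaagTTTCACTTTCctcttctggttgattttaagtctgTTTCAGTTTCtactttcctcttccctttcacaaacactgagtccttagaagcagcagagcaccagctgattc
Isg15, chr4:156200869-156200988, - strand: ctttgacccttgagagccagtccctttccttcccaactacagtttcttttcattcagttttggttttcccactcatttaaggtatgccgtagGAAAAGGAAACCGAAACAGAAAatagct
Rsad2, chr12:26456503-26456622, - strand: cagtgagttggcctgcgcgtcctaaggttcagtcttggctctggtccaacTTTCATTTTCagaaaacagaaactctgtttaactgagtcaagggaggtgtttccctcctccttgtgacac
Oasl1, chr5:114923070-114923189, + strand: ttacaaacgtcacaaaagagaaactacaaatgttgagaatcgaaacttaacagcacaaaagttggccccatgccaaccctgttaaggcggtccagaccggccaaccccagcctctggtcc

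Counted from the gene start, the 3 overlapping matches of Isg15 began at -78, -72 and -66. Ifit1 held 2, at -104 and -85, Ifit3 held 2, at -156 and -122, and Rsad2 held 1, at -120. The windows of Oasl1 and Oasl2 held none, which says only that these letters are not in them. Usp18, Oas2, Mx1 and Rtp4 had no entry. A match is a description of the sequence and not a measured binding site.

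Values are FPKM, that is, fragments scaled by transcript length and by the mapped fragments of the library, so levels of different genes can be compared. Read depth is unknown, and no counting interval can be given. From 12198 to 12515 genes per sample reached 1 FPKM. Group values are mean ± SD (n = 3). Differences are log2 fold changes of FPKM + 1, MWA+2DG minus MWA+PBS, fitted with limma over the 12444 genes whose mean over the 6 samples was 1 FPKM or more, and a gene was called at a Benjamini-Hochberg adjusted p under 0.05. Nothing in the labels says that the samples of a group came from separate mice, so the p-values measure the spread between these samples. Cd8a, which encodes the alpha chain of the CD8 co-receptor, was at 231.5 ± 6.96 FPKM with MWA+PBS and 366.4 ± 9.47 FPKM with MWA+2DG, so the isolated cells carried the labelled marker.

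Of the 10 effectors, 9 passed the filter, each with a mean of at least 1 FPKM in both groups, and Oasl2 did not. In MWA+2DG, 7 of the 9 were higher: Ifit1, Ifit3, Isg15, Usp18, Oas2, Mx1 and Rtp4. Rsad2 and Oasl1 were not called, and 0 of the 9 were lower. Of all tested genes 22.3% were called higher and 17.1% lower, so 39.4% were called. The 7 genes also passed the rule used in the study, an unadjusted p under 0.05 and a log2 fold change beyond 0.25, which 21.6% of tested genes passed in the direction of higher. The ratio of group means was between 1.44 and 2.54 for the 7 called genes, and 9.57% of all tested genes had a log2 fold change at least as large as that of Oas2, the smallest of the 7. In each of the 7 all MWA+2DG samples were above all MWA+PBS samples, which held for 30.2% of all tested genes. The median log2 fold change of the 9 was 0.67. When samples were scaled to T lineage genes, 3.95% of all tested genes were called higher and 68.1% lower. Of the 9 effectors 5 were then called higher and 2, Oasl1 and Rsad2, lower, and Isg15 and Oas2 were not called. Neutrophil markers (11 of 12 higher) and monocyte and macrophage markers (12 of 14 lower) differed between the same groups, and their part in the result was not tested.

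**Figure D1:**
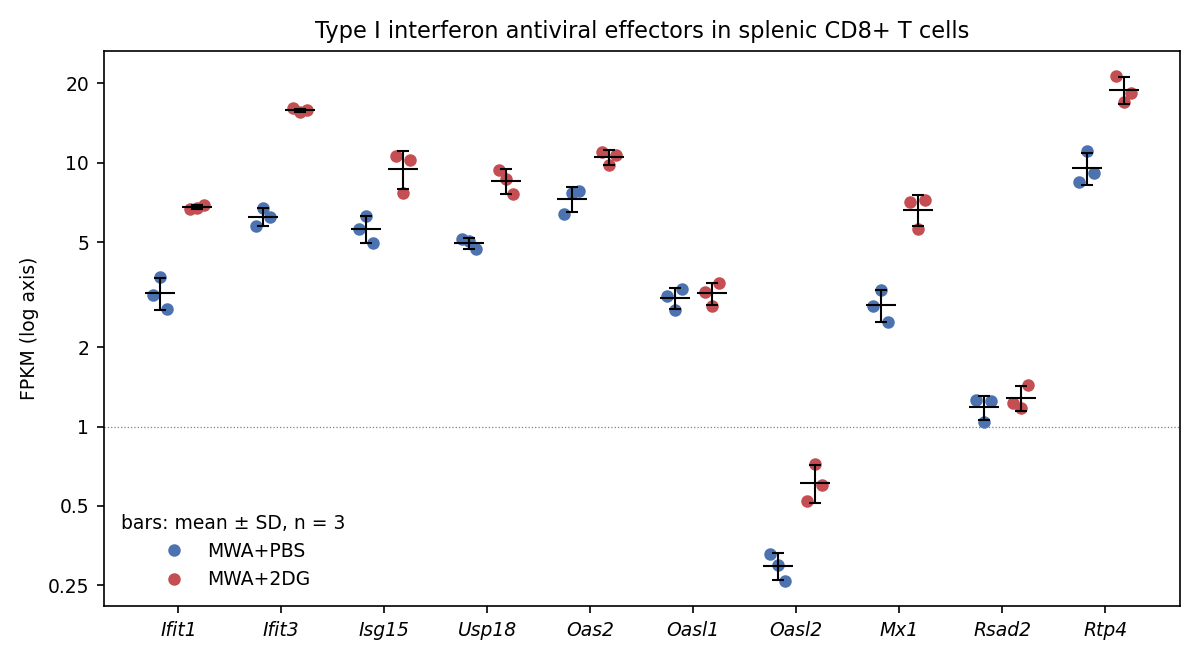
FPKM (log axis) of the 10 antiviral effectors in each of the 3 MWA+PBS and 3 MWA+2DG samples, with mean ± SD. The 2 groups are apart in Ifit1, Ifit3, Isg15, Usp18, Oas2, Mx1 and Rtp4 and overlap in Oasl1 and Rsad2, and Oasl2 lies below 1 FPKM (dotted line) in every sample.

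The IFIT proteins bind viral RNA and the translation initiation machinery. Ifit3 (ENSMUSG00000074896) was at 5.75, 6.74 and 6.21 FPKM with MWA+PBS and at 16.05, 15.62 and 15.82 FPKM with MWA+2DG. The 3 MWA+2DG samples lay close together, above all MWA+PBS samples. This was the largest change among the 9 tested effectors, with means of 6.23 ± 0.495 and 15.8 ± 0.215 FPKM and a log2 difference of 1.22 ± 0.07 (SE, limma adjusted p = 1.15e-05). Ifit1 (ENSMUSG00000034459), which recognises the cap of foreign RNA, was at 3.14, 3.68 and 2.79 FPKM and at 6.69, 6.72 and 6.90 FPKM. Its lowest MWA+2DG value thus exceeded its highest MWA+PBS value. Its log2 fold change was 0.89 ± 0.09 (SE, limma adjusted p = 0.000216).

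Ifit3 has a near copy, Ifit3b, whose transcript was 97.8% identical over 1700 aligned bases. Reads may have been shared out between the pair in quantification, and each value taken alone is uncertain. Ifit3b alone was at 1.94 ± 0.26 and 5.44 ± 0.768 FPKM. The sum of both genes was 8.18 ± 0.688 FPKM with MWA+PBS and 21.3 ± 0.786 FPKM with MWA+2DG, a ratio of 2.60 against 2.54 for Ifit3 alone. At the same locus on chromosome 19 Ifit2 and Ifit1bl1 were also higher, with log2 fold changes of 0.80 and 1.10 (limma adjusted p = 0.00027 and 3.45e-05). Ifit1bl2, the neighbour of Ifit1, was at 0.147 and 0.933 FPKM, below the filter, and was not tested.

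ISG15 is a ubiquitin-like protein that is attached to other proteins, and USP18 both removes it and dampens the type I interferon receptor. Isg15 (ENSMUSG00000035692) was at 5.59, 6.30 and 4.98 FPKM with MWA+PBS and at 10.59, 7.69 and 10.20 FPKM with MWA+2DG. MWA+2DG replicate 5 was the low sample of its group and still lay above the highest MWA+PBS sample. For Isg15 the log2 fold change was 0.66 ± 0.13 (SE, limma adjusted p = 0.00524), the widest error of the 9 tested. With T lineage scaling it was 0.24 and was not called (limma adjusted p = 0.0799). A near copy, AC151275.1, 95.2% identical over 482 bases, was at 0 to 0.01 FPKM with MWA+PBS and 0.13 to 0.28 FPKM with MWA+2DG. Usp18 (ENSMUSG00000030107) was at 5.15, 5.03 and 4.70 FPKM and at 9.37, 8.64 and 7.58 FPKM. The groups did not overlap, and the log2 fold change was 0.67 ± 0.08 (SE, limma adjusted p = 0.000651). An antisense gene, Gm44148, overlaps Usp18 and was at 0.35 to 0.38 FPKM with MWA+PBS and at 0.55 to 1.25 FPKM with MWA+2DG. Libraries were strand-marked, but whether strand was used in quantification was not stated, so reads of the pair cannot be told apart. The same holds for Oasl1 and its antisense gene Gm13822, listed at 0 to 0.39 FPKM.

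Of 4 enzymes that join ISG15 to its targets 2 were higher and 1 lower, beside 22.3% and 17.1% of all tested genes. Uba7 alone was higher with T lineage scaling and 2 were lower, beside 3.95% and 68.1% of all tested genes. Herc6 was then not called, with -0.09. Uba7, the activating enzyme, was at 17.6 ± 0.315 FPKM with MWA+PBS and 28.6 ± 2.28 FPKM with MWA+2DG, and the log2 fold change was 0.67 (limma adjusted p = 0.000231). Herc6, a ligase, was also higher, with 0.33 (limma adjusted p = 0.00974). Ube2l6, the conjugating enzyme, was lower, at 3.77 ± 0.235 and 2.54 ± 0.388 FPKM, with -0.44 (limma adjusted p = 0.0112). Trim25, another ligase, was at 19.6 ± 1.48 and 21.7 ± 0.978 FPKM and was not called, with 0.14 (limma adjusted p = 0.15).

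OAS proteins sense double-stranded RNA, and the catalytic members make the messenger that activates RNase L. Oas2 (ENSMUSG00000032690) was at 6.40, 7.66 and 7.80 FPKM with MWA+PBS and at 11.01, 9.76 and 10.69 FPKM with MWA+2DG. All MWA+2DG samples were above all MWA+PBS samples, and the log2 fold change was 0.47 ± 0.09 (SE, limma adjusted p = 0.00399). With T lineage scaling Oas2 was not called, with 0.05 (limma adjusted p = 0.603). Oas3, the neighbour of Oas2 on chromosome 5, was at 8.22 ± 0.538 and 14.9 ± 0.247 FPKM, with 0.78 (limma adjusted p = 7.67e-05). Oas1b, of the wider list of type I interferon effectors, was at 0.997 ± 0.191 and 4.02 ± 0.552 FPKM, with 1.33. It passed the filter through its MWA+2DG level alone, so no p-value is given for it.

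Oasl1 and Oasl2 encode OAS-like proteins. Oasl1 (ENSMUSG00000041827), which is known to restrain translation of Irf7, was at 3.12, 2.77 and 3.33 FPKM with MWA+PBS and at 3.24, 2.87 and 3.49 FPKM with MWA+2DG. The groups overlapped. The log2 fold change of Oasl1 was 0.04, with a 95% interval from -0.17 to 0.25 (limma adjusted p = 0.731). Oasl2 (ENSMUSG00000029561) was at 0.33, 0.30 and 0.26 FPKM and at 0.52, 0.72 and 0.60 FPKM. Its values were low in all samples and did not overlap between groups, and it was not part of the reported fit. With no filter on low values its log2 fold change was 0.31 ± 0.07 (SE, limma adjusted p = 0.0296).

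Mx1 (ENSMUSG00000000386) encodes a dynamin-like GTPase that blocks influenza virus. In the C57BL/6J reference RefSeq lists it as a transcribed pseudogene, and most laboratory strains carry a defective allele, so its RNA level does not stand for working protein. Mx1 was at 2.86, 3.29 and 2.50 FPKM with MWA+PBS and at 7.09, 5.60 and 7.21 FPKM with MWA+2DG. The groups were well apart, and again MWA+2DG replicate 5 was the low one. The log2 fold change was 0.97 ± 0.11 (SE, limma adjusted p = 0.000502). Its paralog Mx2, 94.8% identical over 921 aligned bases, was at 1.97 ± 0.154 and 3.30 ± 0.78 FPKM, with 0.52 (limma adjusted p = 0.0213), and reads could be split between the pair.

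Rtp4 encodes a chaperone of receptor trafficking that is induced by interferon. It was the most abundant of the 10 genes. Rtp4 (ENSMUSG00000033355) was at 8.47, 11.03 and 9.11 FPKM with MWA+PBS and at 21.31, 16.91 and 18.38 FPKM with MWA+2DG. The groups did not overlap, and the log2 fold change was 0.92 ± 0.11 (SE, limma adjusted p = 0.000632). Gm45338 overlaps Rtp4 on the same strand and is 100% identical to it over 296 bases. It was not analysed here, so reads of the pair cannot be told apart.

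Rsad2, which encodes viperin, an enzyme that makes a chain-terminating ribonucleotide, was the other effector that was not called. Rsad2 (ENSMUSG00000020641) was at 1.26, 1.04 and 1.25 FPKM with MWA+PBS and at 1.23, 1.18 and 1.44 FPKM with MWA+2DG. The samples of both groups were mixed in order. The log2 fold change was 0.06, with a 95% interval from -0.17 to 0.30 (limma adjusted p = 0.64). Its promoter is among those shown above with an ISRE match. Cmpk2, its neighbour on chromosome 12 and a nucleotide kinase, was named after its value was seen: it was at 2.91 ± 0.274 and 4.29 ± 0.412 FPKM, with 0.43 (limma adjusted p = 0.00742). Whether Rsad2 and Oasl1 differed in their change from the other effectors was not tested.

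**Figure D2:**
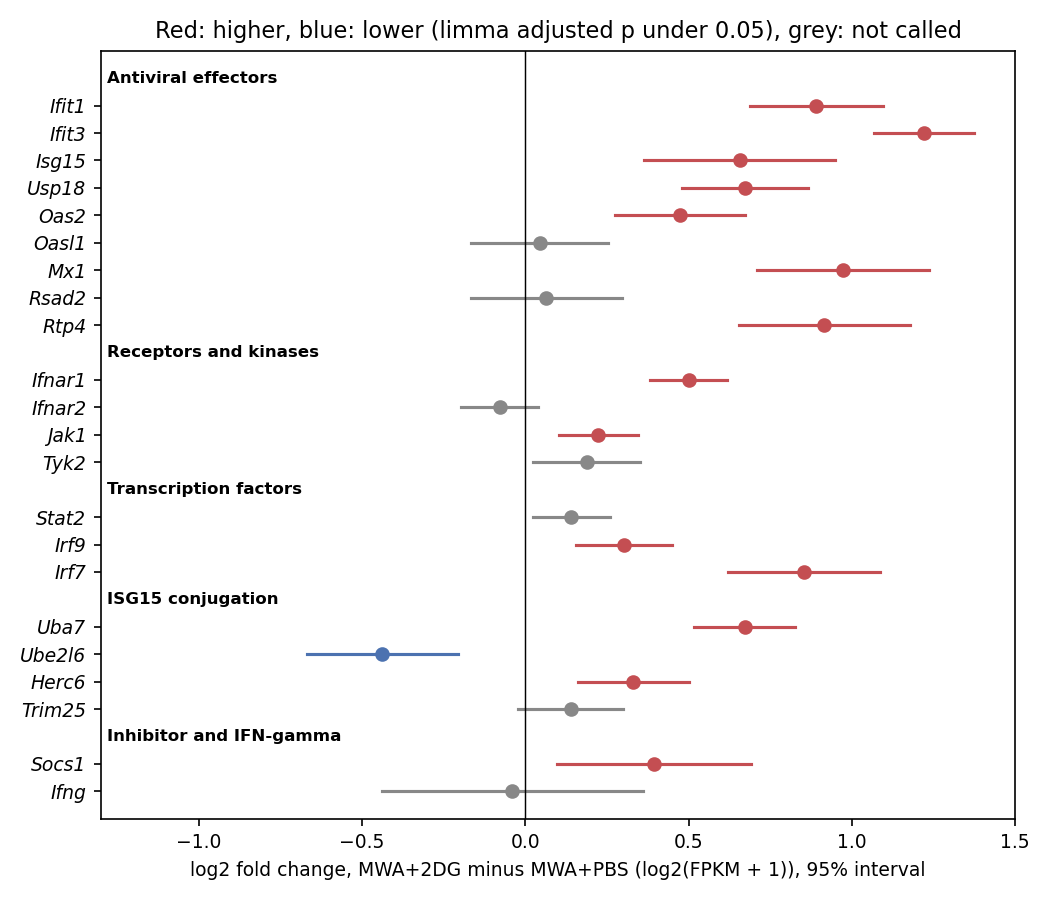
Log2 fold change (MWA+2DG minus MWA+PBS, log2(FPKM + 1)) with its 95% interval from limma for the 9 tested effectors and for genes of the interferon pathway. The intervals of Oasl1, Rsad2, Ifnar2, Trim25 and Ifng span 0, and Ube2l6 is the gene called lower. T lineage scaling shifts the values by -0.42, which takes Oasl1, Rsad2, Jak1, Tyk2, Stat2, Irf9, Herc6, Trim25 and Socs1 below 0 as well.

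In level the order of means in MWA+PBS was Rtp4, Oas2, Ifit3, Isg15, Usp18, Ifit1, Oasl1, Mx1, Rsad2 and Oasl2. Neighbours in the middle of that order overlapped: Oas2 with Ifit3, Ifit3 with Isg15, Isg15 with Usp18, and Ifit1 with Oasl1 and Mx1. In MWA+2DG Ifit3 stood second, above Oas2, with no overlap between their samples. As a place among all tested genes, the mean level of Rtp4 was above that of 73.9% of them and that of Rsad2 above 4.61%.

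MWA+2DG replicate 5 was the lowest of its group in 7 of the 9 tested effectors and in 41.5% of all tested genes. MWA+PBS replicate 2 was the highest of its group in 5 of the 9 and in 43.8% of all tested genes. These shares were not tested against each other. Without MWA+2DG replicate 5 the same 7 of 9 were called, and 18.5% of all tested genes were called higher.

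The upstream genes of the pathway were then compared from a list of ligands, receptors, kinases, transcription factors, inhibitors, sensors and ISG15 enzymes. Of 64 listed genes, 46 were in the files and 41 were tested, of which 18 were higher and 9 lower. Of all tested genes 22.3% were higher and 17.1% lower. With T lineage scaling 4 of the 41 were called higher, among them Irf7 and Uba7, and 25 lower, beside 3.95% and 68.1% of all tested genes. How many of the 41 were called in each direction thus depends on the scaling. The median log2 fold change was 0.18, against 0.05 over all tested genes.

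Of 21 listed ligands 4 were in the files, and Ifnab, Ifnk and Ifnz were at 0.25 FPKM or less in every sample. The other type I interferon genes were not analysed here. Ifng, which encodes interferon-gamma, was at 1.96, 2.72 and 1.92 FPKM with MWA+PBS and at 2.68, 1.43 and 2.31 FPKM with MWA+2DG. The groups overlapped, and the log2 fold change of -0.04 had a 95% interval from -0.44 to 0.36 (limma adjusted p = 0.875).

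Of 8 tested receptor chains and kinases 2 were higher and 2 lower, shares near those of all tested genes (22.3% and 17.1%). With T lineage scaling 0 were higher and 7 lower, beside 3.95% and 68.1% of all tested genes. Ifnar1 was at 21.3 ± 0.425 FPKM with MWA+PBS and 30.6 ± 1.03 FPKM with MWA+2DG, and the log2 fold change was 0.50 (limma adjusted p = 0.000254). Ifnar2 was at 25.1 ± 0.602 and 23.7 ± 0.74 FPKM and was not called, with -0.08 (limma adjusted p = 0.254). Both chains of the interferon-gamma receptor were lower: Ifngr2 had -0.51 and Ifngr1 -0.21 (limma adjusted p = 0.00216 and 0.0268). Of the kinases, Jak1 was higher, with 0.22 (limma adjusted p = 0.0113), and Tyk2, with 0.19, was not called (limma adjusted p = 0.0677). Ifnar1 was not called with T lineage scaling, with 0.08, and Jak1 was then lower, with -0.195.

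Of 9 transcription factors of the pathway 5 were higher and 2 lower, beside 22.3% and 17.1% of all tested genes. With T lineage scaling 2 were higher and 4 lower, beside 3.95% and 68.1%. Irf7, the factor that amplifies interferon-alpha production and is itself interferon-induced, rose from 12.8 ± 1.11 to 24.0 ± 2.9 FPKM, with 0.85 (limma adjusted p = 0.000508), and with T lineage scaling it was still higher, with 0.43 (limma adjusted p = 0.00231). Irf9 was higher by less, with 0.30 (limma adjusted p = 0.00789), and Stat2 was not called, with 0.14 (limma adjusted p = 0.0608). Irf5 and Irf8, which B cells and myeloid cells express strongly, were lower, with -1.38 and -1.10 (limma adjusted p = 4.96e-05 and 1.19e-05). Of 7 feedback inhibitors 3 were higher and 1 lower, and Socs1 was among the higher, with 0.39 (limma adjusted p = 0.0427). Of 13 tested sensors and adaptors, 6 were higher and 3 lower. Both lists stand beside the same 22.3% and 17.1% of all tested genes. Irf9 and Socs1 were not called with T lineage scaling, at -0.12 and -0.03. Then 0 inhibitors were higher and 5 lower, and 1 sensor was higher and 7 lower, beside 3.95% and 68.1% of all tested genes.

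Interferon effectors outside the 10 were compared from a list of 51 genes, of which 50 were in the files and 46 were tested. Of these 32 were higher, 7 were lower and 7 were not called, with a median log2 fold change of 0.37, beside 22.3% higher and 17.1% lower of all tested genes. With T lineage scaling 12 of the 46 were called higher and 17 lower, beside 3.95% and 68.1% of all tested genes. The median was then -0.05. In the reported fit the largest increases apart from Oas1b, which passed the filter through MWA+2DG alone, were those of Ifit3b, Ifit1bl1 and Samd9l. Samd9l, at 0.97 (limma adjusted p = 0.000651), was far more abundant, at 68.2 ± 12.3 and 133.0 ± 8.19 FPKM. The largest decreases were those of Ifitm2, Ifitm1, Ifi44l and Tdrd7. Ifitm2 and Ifitm1, which encode membrane proteins that block viral fusion, fell by 1.42 and 1.23 on the log2 scale (limma adjusted p = 0.000899 and 0.000372), Ifi44l by 0.54 (limma adjusted p = 0.013) and Tdrd7 by 0.48 (limma adjusted p = 0.00623). The effectors thus did not all move one way.

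The guanylate binding proteins and immunity-related GTPases are best known as targets of interferon-gamma. Of 15 genes, 14 were higher, 0 were lower and Gbp3 was not called, with 0.07 (limma adjusted p = 0.421). Their median was 0.57, and of all tested genes 22.3% were higher. With T lineage scaling 7 of the 15 were called higher and 2 lower, beside 3.95% and 68.1% of all tested genes. Their median was then 0.155. The largest changes were 1.25 for Iigp1, 1.21 for Gbp6, 0.73 for Gbp4 and 0.65 for Tgtp1 (limma adjusted p = 7.51e-06, 0.00101, 0.000257 and 4.82e-05). The smallest of the called were 0.27 for Gbp8, 0.36 for Gbp2 and 0.40 for Ifi47 (limma adjusted p = 0.0073, 0.00117 and 0.000739). Whether this list and the 10 effectors differed was not tested.

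**Figure D3:**
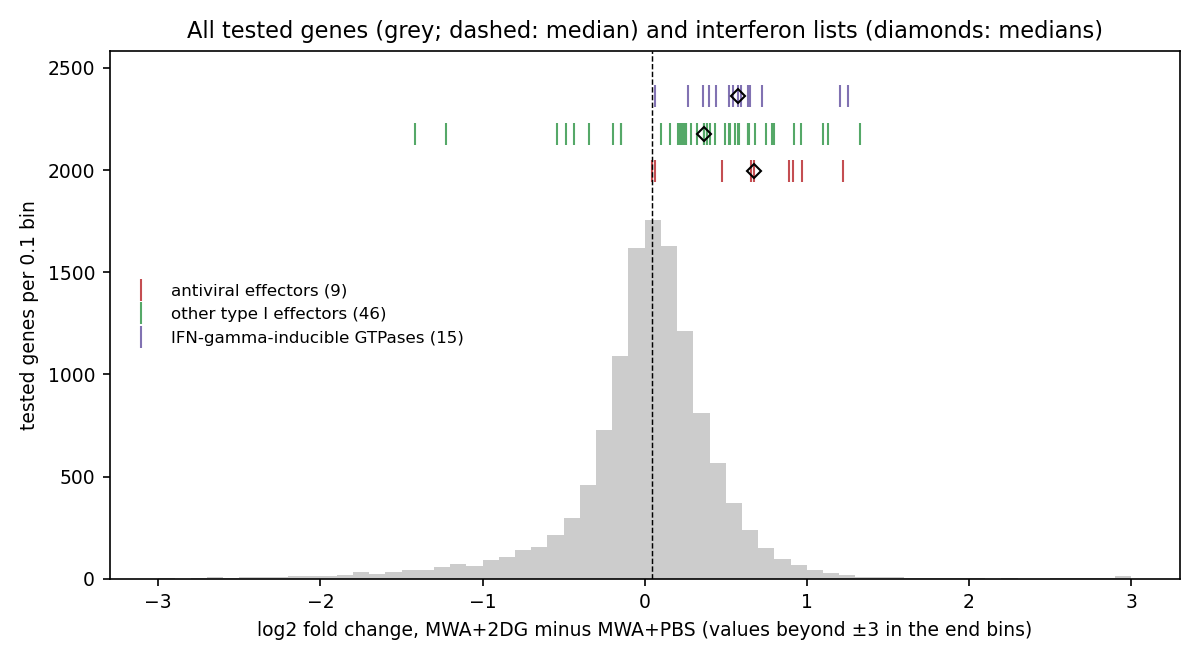
Number of tested genes per 0.1 of log2 fold change (grey bars, 12444 genes, dashed line at their median of 0.05) with each gene of 3 interferon lists as a tick and the list medians as diamonds. The 9 tested antiviral effectors lie between 0.04 and 1.22, and the other effectors reach from -1.42 to 1.33.

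The ISRE core was also counted over these lists and over all genes with a promoter in the table. It was found in 19 of 41 genes of the other effectors (46.3%) and in 9 of 10 of the GTPases. Of tested genes with a promoter it was found in 5.75% of the 1932 called higher, 4.26% of the 1454 called lower and 3.23% of the 4960 not called.

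The genes with the pattern most like the mean of the 10 effectors over the 6 samples were Spsb1, Fam204a, Cfap97, Sp110 and Trim21. Their root mean square differences from that mean, on the log2(FPKM + 1) scale with each gene centred on its own mean, were between 0.0226 and 0.0304. Sp110 was at 36.5 ± 2.73 and 57.1 ± 2.57 FPKM.

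Other cell types and stress genes moved between the same groups, and their part in the results was not tested. Counts that rose or fell are of tested markers called, beside 22.3% higher and 17.1% lower of all tested genes. In a bulk sample, more cells of a type and more RNA per cell cannot be told apart. Neutrophil markers rose in 11 of 12, with a summed level of 68.2 to 92.6 FPKM with MWA+PBS and 1600 to 1780 FPKM with MWA+2DG. B cell markers rose in 9 of 10, from sums of 11.2 to 12.4 FPKM to sums of 57.4 to 62.4 FPKM. At such low MWA+PBS sums, some of these 10 may have passed the filter through MWA+2DG alone. Monocyte and macrophage markers fell in 12 of 14, from 875 to 940 FPKM to 204 to 224 FPKM. Plasmacytoid dendritic cells are the main source of interferon-alpha, and of their 8 markers 6 were tested, 3 were lower and 0 higher. The defining marker Siglech was at 0.88 ± 0.139 and 0.523 ± 0.0603 FPKM. Natural killer cell markers rose in 3 of 4 and fell in 1. Erythroid markers fell in 8 of 8, platelet markers in 3 of 3, conventional dendritic cell markers in 2 of 2, plasma cell markers in 2 of 4 and CD4 T cell markers in 2 of 4, with 0 higher in these 5 lists. No marker in any list was at 0 in all samples. Heat shock and immediate early genes, which respond to handling, fell in 14 of 15, from sums of 1730 to 1800 FPKM to sums of 521 to 547 FPKM.

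**Figure D4:**
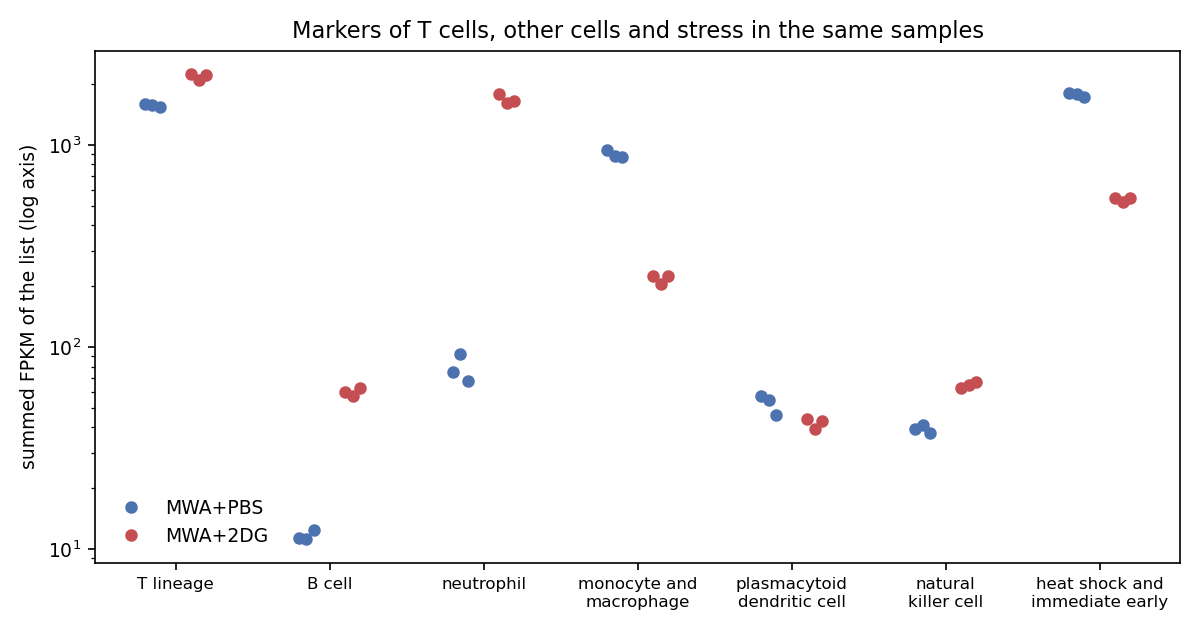
Summed FPKM (log axis) of marker lists in each of the 6 samples. T lineage, B cell, neutrophil and natural killer cell sums are higher in all MWA+2DG samples, and monocyte and macrophage, plasmacytoid dendritic cell and stress gene sums are lower.

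The T lineage itself took a larger share of the RNA in MWA+2DG. Of 17 T lineage genes 15 were higher and 0 lower, beside 22.3% and 17.1% of all tested genes. The T lineage genes had a median log2 fold change of 0.41 and sums of 1530 to 1600 FPKM against 2110 to 2240 FPKM. When samples were scaled to the mean of these genes, the median of all tested genes shifted by -0.42. The 5 effectors still called higher were Ifit3, with 0.80 (limma adjusted p = 5.23e-05), Mx1, with 0.55, Rtp4, with 0.50, Ifit1, with 0.47, and Usp18, with 0.25. Isg15 and Oas2 were no longer called. Oasl1 and Rsad2 went below 0, to -0.38 and -0.35, with a limma adjusted p of 0.00733 and 0.0165, close to the shift that this scaling gives every gene. Relative to T lineage transcripts, then, 5 of the 9 tested effectors were called higher, 2 were called lower and 2 were not called. Of all tested genes 3.95% were then called higher and 68.1% lower.

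**Figure D5:**
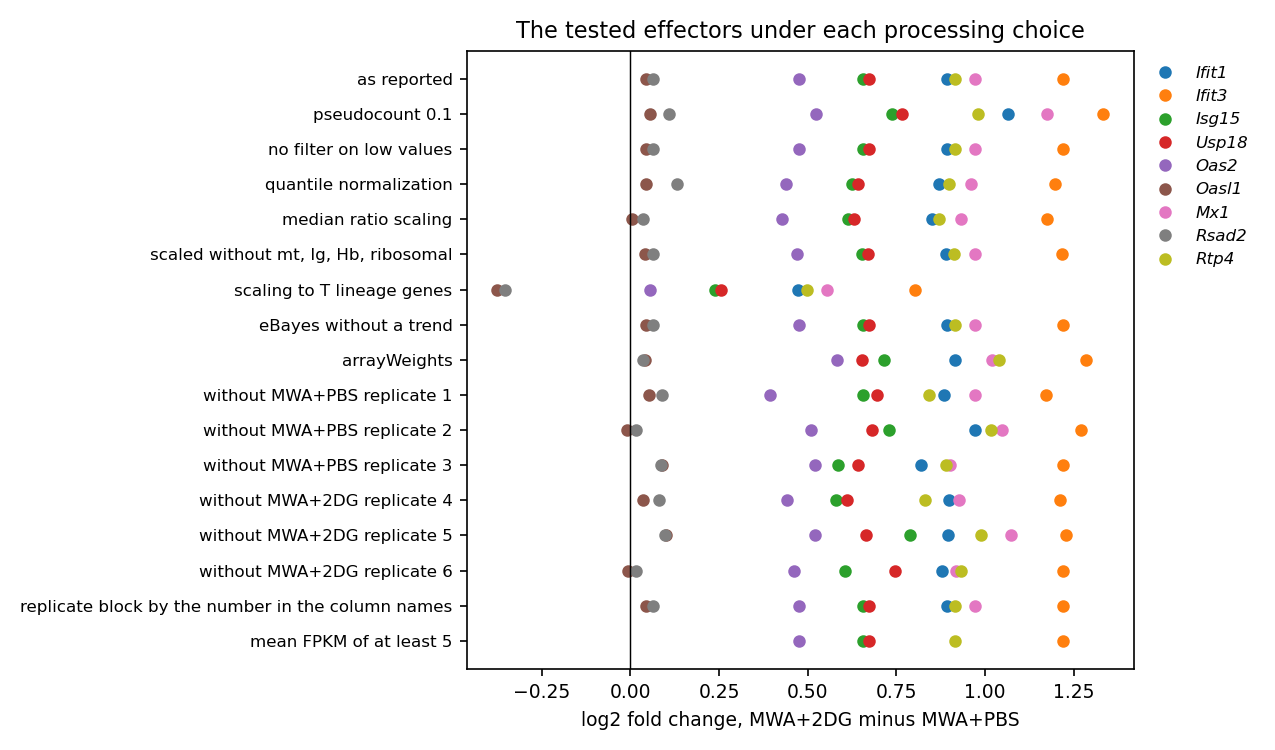
Log2 fold change (MWA+2DG minus MWA+PBS) of the 9 tested effectors under each processing choice, 1 row per choice. T lineage scaling lowered all 9, to values between -0.38 and 0.80, and Ifit3 was the highest in each row.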

How the data were processed

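RNA-seq was made from 6 samples (3 MWA+PBS, 3 MWA+2DG), grouped by their labels. The deposited FPKM values were computed by the authors with StringTie and ballgown after HISAT2 mapping, with fastp for read quality. The submitters' processing notes name cutadapt 1.9, HISAT2 2.0.4, UMI-tools, StringTie 1.3.4d and build mm9. The annotation was not stated in the sources used. FPKM holds no counts and is relative to each library's total.

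Symbols were found for 28689 of 28773 IDs in GENCODE M21. The test used log2(FPKM + 1), a mean FPKM of at least 1, and limma 3.58.1 in R 4.3.3 (lmFit, eBayes with a trend, two-sided, no covariates), checked on simulated data. The study's rule (P under 0.05, log2 fold change beyond 0.25) was an alternative, with those in the closing section. Near copies were sought with BLAST 2.17.0 (at least 90% identity over 200 bases) in GENCODE M21. Members and lists were chosen with earlier results of these data known. Named genes were the 10 members, fixed pathway genes, the 4 largest and 4 smallest changes of each wider list and the 5 most alike patterns. One pathway gene is not reported here. Neighbours, near copies and overlapping genes, and Irf5, Irf8, Ifngr1, Ifngr2 and the cell type and stress markers other than Cd8a, lie outside this rule and were named after their values were seen. Since mm9 is not the build of the reference, promoter coordinates are RefSeq's and gene positions are not given.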

Additional observations from a re-analysis of the deposited data

How the results depend on the processing

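Sample titles share no replicate number between the groups, but the columns number each group from 1 to 3, so a replicate block by that number was added after seeing the data. Deviations of same-numbered samples correlated at 0.0321, -0.177 and -0.114 over tested genes, and those of differently numbered samples at -0.0602 to 0.166. With 3 samples per group these values cannot decide whether same-numbered samples were paired. With the block 7 effectors, 28 other effectors and 14 GTPases were called higher, beside 17.4% of all tested genes. In either direction 23 signalling genes and 3953 of all tested genes were called. The count of effectors called higher, 7, was also 7 with each sample left out, beside 15.9% to 24.0% of all tested genes. It was 5 with a mean FPKM of at least 5, where Ifit1 and Mx1 were not tested and 24.4% of all genes tested were called higher, 8 of 10 without a filter, where Oasl2 was called higher, as were 9.03% of all genes, and 5 with T lineage scaling, beside 3.95%. That scaling left 12 of the other effectors and 7 of the GTPases called higher, and 8967 of all tested genes called, of which 5.49% were higher against 56.5% as reported. The stricter filter gave 2951 called genes. Leaving out each sample gave 3669 to 5152 of all tested genes and 21 to 28 signalling genes called in either direction. With each sample left out 26 to 32 other effectors and 14 GTPases were called higher, beside 15.9% to 24.0% of all tested genes. The log2 fold change of Oasl1 was -0.0108 without MWA+PBS replicate 2 and -0.0057 without MWA+2DG replicate 6, neither called (highest 0.1015, without MWA+2DG replicate 5), and with T lineage scaling it was -0.3753, and that of Rsad2 -0.3547. Both were then called lower. That scaling shifts the log2 fold change of every tested gene by -0.42, and which scaling is the better reference was not tested. FPKM gives no depth, so its share in the error is unknown. Over all alternatives the limma adjusted p of Isg15 ranged from 0.000899 to 0.0799, of Oas2 from 0.000739 to 0.603, of Oasl1 from 0.00733 to 0.975 and of Rsad2 from 0.0165 to 0.936, and the highest of the other 5 effectors was 0.0226, for Usp18.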
